A study of Mus musculus with 9 samples.

Results

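The 52 genes described here code for the secreted Wnt ligands (19 genes), the proteins that lipidate and release them (2), their surface receptors (12), the R-spondins (4), secreted inhibitors (8), intracellular transducers (5) and feedback targets (2). They were chosen by gene symbol, with earlier results of these data known, and all 52 were found among the 51912 genes of the deposited table. RNA sequencing of mouse midbrain dissected at E14.5, an embryonic stage, covered 9 libraries, with 3 libraries for each of 3 genotypes. The labels are wt (wild type, *Nkx2.9*+/+), het (*Nkx2.9*LacZ/+, in which LacZ stands in for the first exon on 1 allele) and ko (*Nkx2.9*LacZ/LacZ, the same change on both alleles), all on the C57Bl/6 strain. *Nkx2.9* is a homeobox transcription factor of the NK2 family, and its loss here is constitutive, so it is not limited to a cell type or a stage. Each library held 2 pooled midbrains, and neither the sex of the embryos nor the litter behind each library is given. Only the genotype can be read from a column of the table, not the replicate, and libraries are therefore given by their column, which is ko for 1 to 3, het for 4 to 6 and wt for 7 to 9.

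Wnt proteins are secreted, lipid-modified ligands that bind Frizzled receptors together with the co-receptors Lrp5 or Lrp6. In the canonical branch this stops a cytoplasmic complex of Axin, Apc and Gsk3 from marking β-catenin for breakdown, and β-catenin then enters the nucleus and acts with the Tcf and Lef transcription factors on genes such as *Axin2*. In the embryonic midbrain, Wnt signalling patterns the tissue near the isthmic organizer, the signalling centre at the border with the hindbrain, and takes part in the formation of dopamine neurons.

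The promoters of *Wnt8b* and *Wnt1* are shown first, since these are the ligands that the study followed in *Nkx2.9* mutants and since *Nkx2.9* codes for a DNA-binding protein. Both are RefSeq sequences of GRCm38.p6, 250 bases long, written 5′ to 3′ on the strand of the gene and ending at the base before its start. *Wnt8b* lies on the plus strand of chromosome 19, with its promoter at chr19:44493222-44493471, and *Wnt1* on the plus strand of chromosome 15, with its promoter at chr15:98789607-98789856.
Wnt8b promoter: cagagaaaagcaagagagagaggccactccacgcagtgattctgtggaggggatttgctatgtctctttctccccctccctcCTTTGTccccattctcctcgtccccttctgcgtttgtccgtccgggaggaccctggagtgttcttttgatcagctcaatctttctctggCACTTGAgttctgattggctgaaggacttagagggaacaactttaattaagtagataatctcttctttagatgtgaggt
Wnt1 promoter: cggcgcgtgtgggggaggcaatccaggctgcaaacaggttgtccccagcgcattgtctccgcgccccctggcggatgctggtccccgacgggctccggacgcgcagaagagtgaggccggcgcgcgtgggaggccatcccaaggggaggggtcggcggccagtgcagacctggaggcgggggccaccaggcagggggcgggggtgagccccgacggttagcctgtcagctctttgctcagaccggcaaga
Capitals mark matches to the 4 motifs searched on both strands, which were chosen after the *Wnt8b* sequence had been seen. They are the NK2 core AAGTG and its longer form TNAAGTG, which contains it, and the Tcf/Lef cores CTTTGA and CTTTGT. The *Wnt8b* promoter has a GC content of 48.4% and holds TNAAGTG on its reverse strand, with the match beginning 79 bases before the start, and CTTTGT 168 bases before the start. The *Wnt1* promoter has a GC content of 71.6% and holds none of the 4 motifs. Among 32851 mouse promoters cut to the same length, 40.7% hold AAGTG, 10.1% TNAAGTG, 13.8% CTTTGA and 16.5% CTTTGT. Of 43 promoters of 35 of the Wnt genes, 8 hold AAGTG, 2 hold TNAAGTG (*Sfrp5* and *Wnt8b*), 6 hold CTTTGA and 7 hold CTTTGT. A match describes letters only and was not tested as a binding site.

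Between 1692963 and 5942192 reads were counted on genes per library (median 4921748), and the shallowest library is column 7, a wt library, where 1 read is worth 2.59 normalized counts. A normalized count is the number of reads on a gene divided by a size factor of its library, and all values above 0 were whole multiples of 1 read (100%). The targeted gene, *Nkx2-9*, had 4 reads over the 3 wt libraries, 11 over the het and 13 over the ko libraries, which is no drop in the group whose label names the loss, and every direction below is that of the labels. The table counts whole genes, so reads of the exons that remain cannot be told apart from those of the replaced exon, and these few reads do not check the labels. Which columns are ko and which are wt therefore rests on the column names alone, and if these were exchanged the sign of every difference between ko and wt would turn. The normalized count of *Xist*, the RNA of the inactive X chromosome, was 4607 to 5182 in all 3 ko libraries, but ranged from 47.1 to 4342 in wt. In het it had a median of 79.9 and a highest value of 2929. The summed normalized count of 4 Y-linked genes was 0 to 2.26 in ko, 0 to 1075 in wt and 3.26 to 1058 in het. Both measures of sex therefore move with the genotype label. Of the area markers, *En1*, of midbrain and rostral hindbrain, was read in every library, and the caudal hindbrain genes *Hoxb2* and *Hoxb3* were at 0 in all 9 libraries. The 5 listed caudal hindbrain genes together were not at 0. Their summed normalized count was 0 to 2.94 in wt, 1.63 to 6.52 in het and 3.44 to 9.15 in ko, so that all ko sums lay above all wt sums.

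Of the 52 genes, 34 had a mean normalized count of at least 5 and were tested, and the 18 under this minimum are 11 ligands, 3 R-spondins and 4 secreted inhibitors. Every receptor, transducer, feedback target and secretion protein was over the minimum. Divided by exon length, the levels spanned from 0 for *Wnt3a*, a ligand of the dorsal midline, to 462 ± 40.8 normalized counts per kb (SD, n = 9) for *Ctnnb1*, which codes for β-catenin. *Wnt3a* had 0 reads among 41253425 reads on genes, a count that allows for up to 3 reads in a library set of this size, for counting error alone. In 7 of the 52 genes, fewer than 10 reads were counted over all 9 libraries together. The exons of 11 members, 9 of them tested, overlap those of another gene, and since the strand setting of the counting is not given, reads of the partner cannot be told apart. These are *Wnt7b*, *Wnt5a*, *Wnt11*, *Fzd5*, *Fzd6*, *Rspo3*, *Sfrp2*, *Ctnnb1*, *Tcf7l1*, *Lef1* and *Axin2*.

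**Figure D1:**
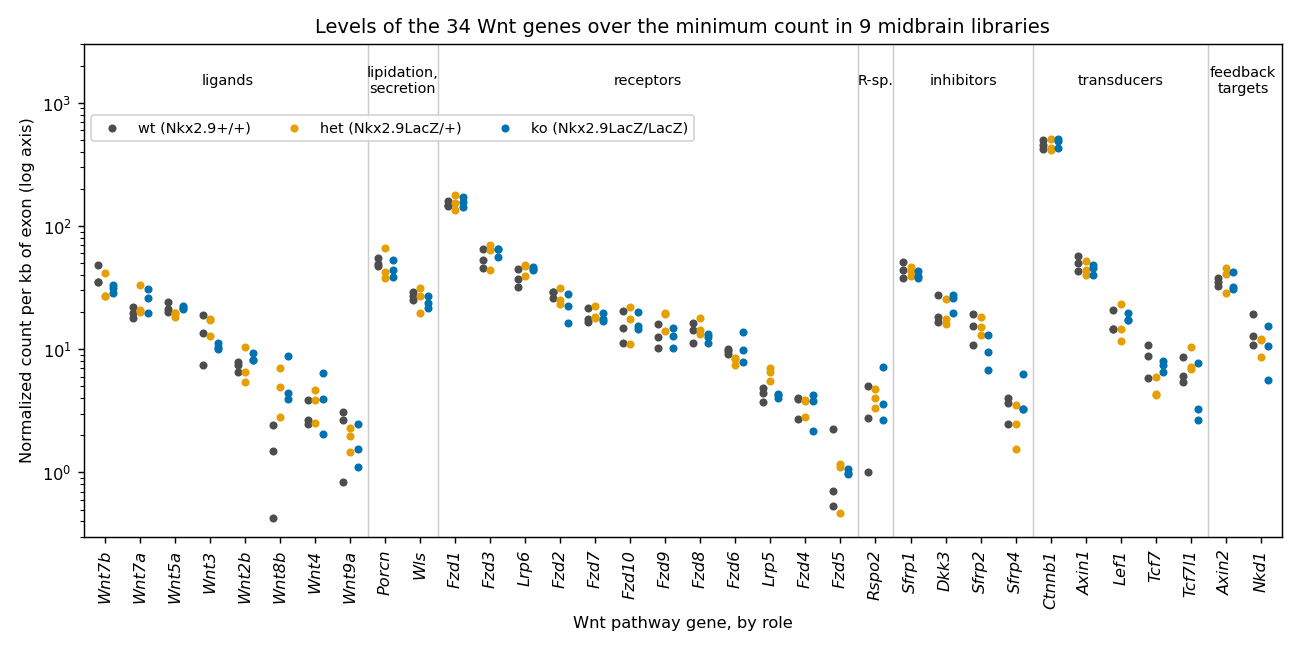
Normalized count per kb of exon (log axis) of the 34 tested Wnt genes, grouped by role, with 1 point per library and colour for the genotype label; a value of 0 has no place on the axis and would not be drawn. *Ctnnb1* (462 per kb on average) and *Fzd1* (155) stand above the other genes, and the points of the 3 genotypes lie over each other for most genes.

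Among the ligands, the highest levels per exon length were those of *Wnt7b*, at 34.2 ± 7.04 normalized counts per kb (SD, n = 9), and *Wnt7a*, at 23.4 ± 5.44, both of which neural cells secrete and brain endothelium responds to. They made up 29.9% and 20.5% of the summed level per kb of all 19 ligands. *Wnt5a*, a ligand known for the planar polarity branch, followed at 20.9 ± 1.72 and *Wnt3* at 13.2 ± 3.92. *Wnt7a* and *Wnt5a* differed by less than the spread between libraries. The level per kb of *Wnt2b* was 7.78 ± 1.54, that of *Wnt8b* 4.04 ± 2.67 (3.53% of the ligand sum) and that of *Wnt4* 3.62 ± 1.38, so that *Wnt8b* and *Wnt4* also lay within their spread. *Wnt9a*, at 1.94 ± 0.758, was the lowest of the 8 tested ligands. Of the 11 ligands under the minimum, *Wnt5b* had 45 reads over all libraries, *Wnt9b* 31, *Wnt1* 30 and *Wnt11* 15, while the other 7 had between 0 and 7. Ligand genes lie in neighbouring pairs at 4 places in the genome, and in 3 of them the partners differed in how many reads they had. *Wnt3* had 390 reads and *Wnt9b*, 24329 bases away on chromosome 11, had 31, whereas *Wnt3a* had 0 and *Wnt9a*, 16176 bases away, had 60. *Wnt1* had 30 reads and *Wnt10b*, 11707 bases away on chromosome 15, had 5, and *Wnt6* and *Wnt10a*, 6194 bases apart on chromosome 1, had 2 reads each.

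The main comparison asks whether Wnt genes differ between ko and wt midbrains. *Wnt8b* was higher in the libraries labelled ko with an unadjusted p under 0.05, and it was the only member for which this held. Fold changes were estimated on log2(normalized count + 1) with limma, on 9 libraries in 1 fit, and this scale understates the change of genes with low counts. With Benjamini-Hochberg adjustment over the 16993 genes tested, 0 members and 0 genes in all (0%) passed 0.05. Without adjustment, 1 of 34 members had a limma p under 0.05, beside 441 of all genes (2.60%). edgeR counted 2 members (*Wnt8b* and *Sfrp2*) and DESeq2 1 (*Wnt8b*), against 421 and 316 of all genes, and neither tool gave an adjusted p under 0.05 for any gene. The median log2 fold change of the 34 members was -0.02, beside 0.01 for all genes, with 15 members above 0 and 19 below. Values of the 2 genotypes did not overlap for 3 of the 34 (*Wnt8b*, *Wnt7b* and *Wnt2b*), beside 9.52% of all genes. All p-values measure the spread between these libraries, and libraries may share a litter, since the methods name few litters and tie none to a library.

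*Wnt8b* (ENSMUSG00000036961) codes for a ligand that is expressed in the developing brain. Its normalized counts were 5.17, 8.42 and 1.47 in the wt columns 7 to 9 and 9.78, 17.1 and 24.5 in the het columns 4 to 6. In the ko columns 1 to 3 they were 30.9, 13.7 and 15.5. All 6 libraries labelled het or ko lay above all 3 labelled wt, whereas the het and ko libraries overlapped. The values rest on 146 reads, of which 16 were in wt (exact 95% Poisson interval 9.15 to 26.0), 56 in het (42.3 to 72.7) and 74 in ko (58.1 to 92.9). Columns 7 and 9 held 2 reads each, and these intervals cover counting error only. The mean normalized count was 5.02 ± 3.48 (SD, n = 3) in wt and 20.01 ± 9.43 in ko, a ratio of 3.99. The log2 fold change was 1.92 ± 0.55 (SE; 95% confidence interval 0.75 to 3.08), with an unadjusted limma p = 0.00312, a Benjamini-Hochberg adjusted p = 1.00 and an exact two-sided permutation p = 0.1, the smallest that 3 libraries against 3 allow. The study singled *Wnt8b* out from these same libraries, so that its p is not independent of that choice.

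Markers of areas and other cell types are given beside *Wnt8b*, and their part in the result was not tested. Their counts stand beside the 2.60% of all genes with an unadjusted limma p under 0.05 in this comparison, and 0 of them passed the adjustment. Between ko and wt, 2 of 5 tested midbrain and rostral hindbrain markers were lower in the libraries labelled ko with an unadjusted limma p under 0.05, with a log2 fold change of -0.60 for *En1* and -0.63 for *Pax7*, directions that rest on the same column names. Their summed normalized count was 1865 to 2104 in wt and 1482 to 1963 in ko. Of 4 forebrain markers tested, 1 was higher (*Neurod6*, 0.72), with sums of 140 to 161 in wt and 127 to 172 in ko. Of the markers tested for other lists, 1 of 7 for dopamine neurons (*Pitx3*, -0.71), 1 of 4 for choroid plexus (*Kl*, -1.25) and 1 of 5 for meninges (*Foxc1*, -0.99) were lower. The median log2 fold changes of these lists were 0.17, -0.78 and -0.28, so that *Pitx3* went against most of its list. Their sums were 714 to 811, 308 to 332 and 237 to 343 in wt, and 751 to 902, 287 to 338 and 182 to 282 in ko. No marker of the diencephalon (6 tested), endothelium (5) or blood (4) had an unadjusted limma p under 0.05, and the 5 caudal hindbrain genes were all under the minimum count. In bulk tissue, fewer cells of a type and less RNA per cell cannot be told apart. With the log2 *Xist* level as a covariate, the log2 fold change of *Wnt8b* was 1.49, with an unadjusted limma p under 0.05. Since *Xist* moves with the genotype label, this fit cannot tell sex and genotype apart.

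**Figure D2:**
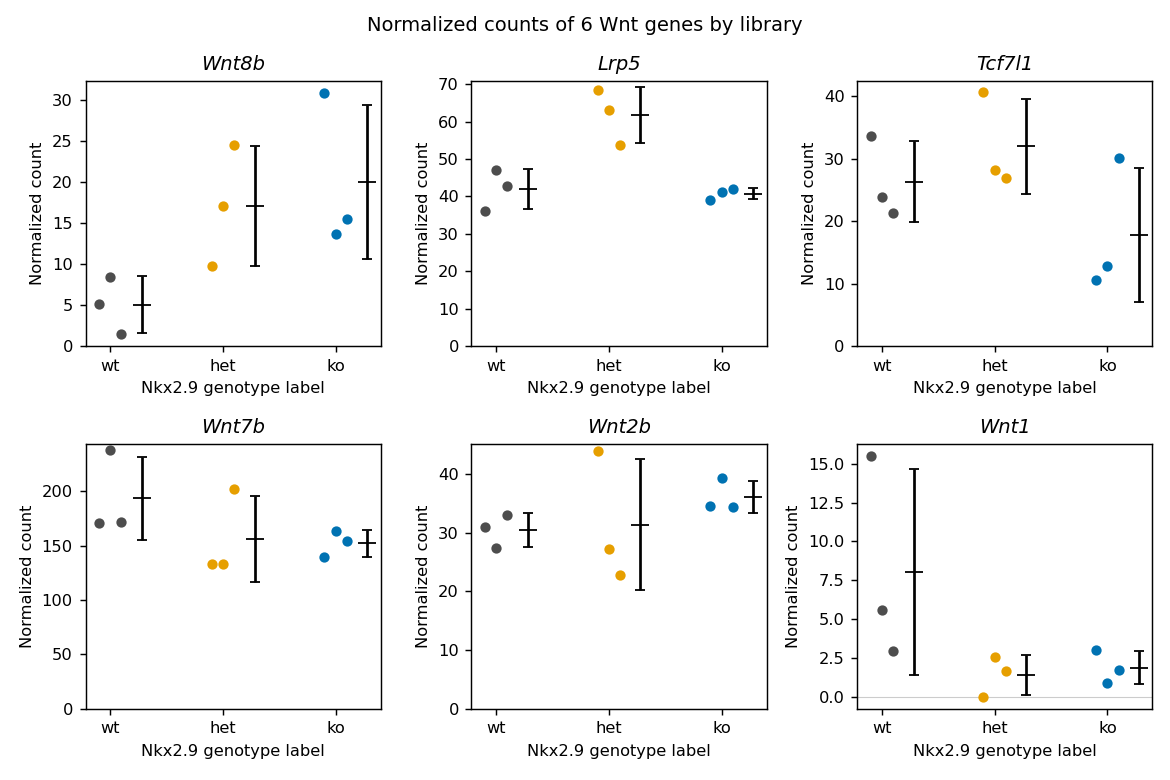
Normalized count of 6 Wnt genes, with 1 point per library and, beside the points, the mean (horizontal mark) and SD (bar) of the 3 libraries of a genotype label. For *Wnt8b* the 3 wt libraries, at 1.47 to 8.42, lie under the other 6, at 9.78 to 30.9, and for *Lrp5* the het libraries, at 53.8 to 68.4, lie above the rest.

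*Wnt7b* was lower and *Wnt2b* higher in every ko library than in any wt library, without a p under 0.05. The normalized counts of *Wnt7b* were 171, 238 and 172 in wt, 134, 133 and 202 in het and 139, 164 and 155 in ko. Its log2 fold change in ko was -0.33 (95% limits -0.73 and 0.07; p = 0.102 by limma without adjustment and 0.1 by exact permutation), and the het libraries overlapped both others. With *Xist* as a covariate it was -0.48 and with total reads -0.39, both with an unadjusted limma p under 0.05, but it was -0.17 without column 8. *Wnt2b*, a ligand of the dorsal midline, had 31.0, 27.4 and 33.1 in wt, 44.0, 27.3 and 22.8 in het and 34.6, 39.3 and 34.4 in ko. The gap between the wt and ko libraries was small beside the spread of the het libraries, and the log2 fold change was 0.24 (interval -0.37 to 0.84).

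*Wnt1*, the ligand of the isthmic organizer, was under the minimum, with normalized counts of 15.5, 5.61 and 2.94 in wt, 0, 2.56 and 1.63 in het and 3.01, 0.915 and 1.72 in ko. The highest value was in the shallowest library, where it stands for 6 reads. There were 18 reads in wt (exact 95% Poisson interval 10.7 to 28.4), 5 in het (1.62 to 11.7) and 7 in ko (2.81 to 14.4). The ko values overlapped those of wt and the exact permutation p was 0.2, while the het values lay under all those of wt (exact permutation p = 0.1, the smallest possible). In the fit without a minimum count, its log2 fold change was -1.46 in ko and -1.84 in het. The second had an unadjusted limma p under 0.05, and neither had an adjusted p under 0.05.

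*Wnt7a* had normalized counts of 56.9, 70.2 and 61.8 in wt, 106, 66.6 and 63.6 in het and 62.5, 97.0 and 83.3 in ko, with overlap between all genotypes. The log2 fold change of *Wnt7a* in ko was 0.34 (95% confidence interval -0.16 to 0.84). *Wnt5a* was the steadiest of the ligands, between 143 and 189 in all libraries. The summed normalized count of the 19 ligands was 543 ± 46.2 in wt, 517 ± 45.1 in het and 530 ± 14.8 in ko (SD, n = 3), so the ligand total differed by less than the spread between libraries.

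The genes for lipidation and release of the ligands are *Porcn* and *Wls*. *Porcn*, the enzyme that attaches the lipid, had normalized counts of 166, 141 and 148 in wt, 200, 114 and 127 in het and 159, 116 and 131 in ko. *Wls*, which carries lipidated Wnt proteins to the cell surface, had 220, 255 and 239, then 173, 278 and 240, then 236, 191 and 207 in the same order of genotypes. All 3 genotypes overlapped for both genes. The log2 fold change in ko was -0.17 for *Porcn* (95% confidence interval -0.60 to 0.26) and -0.17 for *Wls* (-0.54 to 0.19).

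All 12 receptor genes were tested, and the level per kb fell from 155 ± 13.3 for *Fzd1* and 58.8 ± 9.35 for *Fzd3* to 1.03 ± 0.521 for *Fzd5*. *Fzd1* alone made up 42.5% of the summed receptor level per kb. Of the co-receptors, *Lrp6* had 42.7 ± 5.48 normalized counts per kb and *Lrp5* 4.95 ± 1.15. *Fzd1* had normalized counts of 615, 667 and 620 in wt, 649, 569 and 746 in het and 660, 715 and 603 in ko, and *Fzd3*, known for its part in axon guidance, had 587, 837 and 682, then 566, 811 and 904, then 723, 833 and 831. Both genes overlapped between all genotypes, with log2 fold changes in ko of 0.05 (95% confidence interval -0.21 to 0.32) for *Fzd1* and 0.19 (-0.16 to 0.55) for *Fzd3*. The sign for *Fzd1* changed with *Xist* as a covariate and without column 2. Over the 12 receptors the log2 fold change in ko ran from -0.36 for *Fzd2* to 0.25 for *Lrp6*. Of the 12, 0 had an unadjusted limma p under 0.05, beside 2.60% of all genes. The 2 genotypes overlapped for all 12, while 9.52% of all genes did not overlap. The other tools, edgeR and DESeq2, also gave 0 of the 12 an unadjusted p under 0.05.

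*Lrp5* differed in the heterozygous libraries. Its normalized counts were 36.2, 47.0 and 42.7 in wt, 68.4, 63.2 and 53.8 in het and 39.1, 41.2 and 42.1 in ko. The 3 het libraries lay above the other 6, and the other genotypes overlapped. The log2 fold change was 0.55 (95% limits 0.08 and 1.02; limma p = 0.0243 without adjustment) in het over wt and -0.58 (-1.05 to -0.11; unadjusted limma p = 0.018) in ko over het, with an exact permutation p = 0.1 in both, the smallest possible. Both comparisons share the het libraries. The unadjusted limma p was over 0.05 in het over wt without column 4 (log2 fold change 0.47), 5 (0.53) or 7 (0.45), and in ko over het without column 4 (-0.51).

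The R-spondins, which keep Wnt receptors on the surface, were near or under the limit of these libraries. *Rspo2* was the only member over the minimum, with normalized counts of 25.9, 14.0 and 5.15 in wt, 24.4, 17.1 and 20.4 in het and 36.9, 18.3 and 13.7 in ko. These values overlapped, and the log2 fold change in ko was 0.71 (95% confidence interval -0.35 to 1.76). It was 1.20 without column 7, then with an unadjusted limma p under 0.05, but 0.32 without column 1 and 0.14 without column 9. *Rspo3* had 48 reads, at normalized counts of 5.17, 6.32 and 7.36 in wt, 0, 5.98 and 2.45 in het and 6.77, 3.66 and 3.44 in ko. *Rspo1* had 16 reads and *Rspo4* 10, and for both the normalized counts of the ko libraries lay above those of all wt libraries. For *Rspo1* these were 2, 5 and 3 reads against 0, 2 and 2, so that column 1 tied with columns 8 and 9 in reads and stood apart (1.51 against 1.40 and 1.47 normalized counts) through the size factors alone. For *Rspo4* there were 2 reads in each ko library against 0 in each wt library. In het, *Rspo1* had 2, 0 and 0 reads and *Rspo4* 2, 2 and 0. The summed reads of *Rspo1* were 4 in wt (exact 95% Poisson interval 1.09 to 10.2) and 10 in ko (4.80 to 18.4), intervals that overlap. Those of *Rspo4* were 0 in wt (0 to 3.69) and 6 in ko (2.20 to 13.1), intervals that overlap as well. The exact permutation p was 0.1 for both genes, the smallest possible. In the fit without a minimum count, *Rspo4* had an unadjusted limma p under 0.05, with a Benjamini-Hochberg adjusted p = 0.963, and *Rspo1* did not. The shares of all genes given above cover only genes over the minimum and do not apply to these 2 genes.

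Secreted inhibitors bind Wnt proteins or their co-receptors. *Sfrp1*, which binds Wnt proteins, had 42.4 ± 4.36 normalized counts per kb and *Dkk3*, a divergent member of the Dickkopf family, 21.7 ± 4.97, which were 49.3% and 25.2% of the inhibitor sum. The normalized counts of *Sfrp1* were 166, 194 and 222 in wt, 204, 171 and 187 in het and 166, 171 and 189 in ko. *Dkk3* had 93.1, 55.4 and 61.1, then 53.8, 86.2 and 59.6, then 88.1, 92.4 and 66.1 in the same order. All genotypes overlapped for both, and the log2 fold changes in ko were -0.13 (95% confidence interval -0.45 to 0.19) and 0.25 (-0.27 to 0.78). The widest difference among the 4 tested inhibitors was that of *Sfrp2*, with a log2 fold change of -0.62, which has an unadjusted p under 0.05 in edgeR but not in limma. The Lrp-binding inhibitors *Dkk1* and *Dkk2* had 42 and 16 reads and were under the minimum, as were *Sfrp5* (34 reads) and *Frzb* (32).

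Among the intracellular transducers, *Ctnnb1* made up 85.7% of the summed level per kb and *Axin1*, the scaffold of the complex that breaks β-catenin down, 8.67%. *Ctnnb1* had normalized counts of 2351, 2604 and 2183 in wt, 2242, 2142 and 2625 in het and 2558, 2659 and 2213 in ko. With 23571 reads in all, it was the most precisely measured member, and its log2 fold change in ko was 0.06 (95% confidence interval -0.20 to 0.31). The sign changed with *Xist* as a covariate and without column 9. *Axin1* had 217, 164 and 193, then 200, 168 and 154, then 154, 185 and 174 in the same order, with a log2 fold change of -0.16 (-0.49 to 0.18), and *Lef1* had one of 0.14. The genotypes overlapped for *Ctnnb1*, *Axin1* and *Lef1*.

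*Tcf7l1*, a Tcf factor that mostly represses its targets, was lower in ko than in het. Its normalized counts were 33.6, 23.9 and 21.3 in wt, 40.7, 28.2 and 26.9 in het and 10.5, 12.8 and 30.1 in ko. Columns 1 and 2 lay under every other library, but column 3 lay among the het libraries, so the genotypes overlapped. The log2 fold change was -0.93 (95% limits -1.74 and -0.12; limma p = 0.0273 without adjustment) against het and -0.65 (-1.46 to 0.16; unadjusted limma p = 0.106) against wt, with an exact permutation p = 0.3 in both. Against het the unadjusted p was over 0.05 in edgeR and DESeq2, and the log2 fold change was -0.65 without column 1, -0.78 without column 2 and -0.74 without column 4, each with an unadjusted limma p over 0.05. Against wt the log2 fold change was -1.09 without column 3, with an unadjusted limma p under 0.05, but -0.37 without column 1.

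*Axin2* and *Nkd1* are feedback inhibitors that canonical signalling itself switches on. *Axin2* had normalized counts of 209, 193 and 180 in wt, 156, 224 and 252 in het and 169, 233 and 177 in ko, with a mean of 194 ± 14.6 in wt and 193 ± 35.2 in ko (SD, n = 3). Its log2 fold change was -0.02 (95% confidence interval -0.41 to 0.37), and the sign changed with edgeR and without column 1, 3 or 7. *Nkd1* had 87.9, 49.1 and 58.2, then 39.1, 53.8 and 55.5, then 70.0, 25.6 and 48.1 in the same order of genotypes. The genotypes overlapped for both genes, and the log2 fold change of *Nkd1* was -0.50 (-1.19 to 0.19; unadjusted limma p = 0.142, exact permutation p = 0.4), or -0.83 without column 1, then with an unadjusted limma p under 0.05, and -0.12 without column 2 and -0.27 without column 7.

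**Figure D3:**
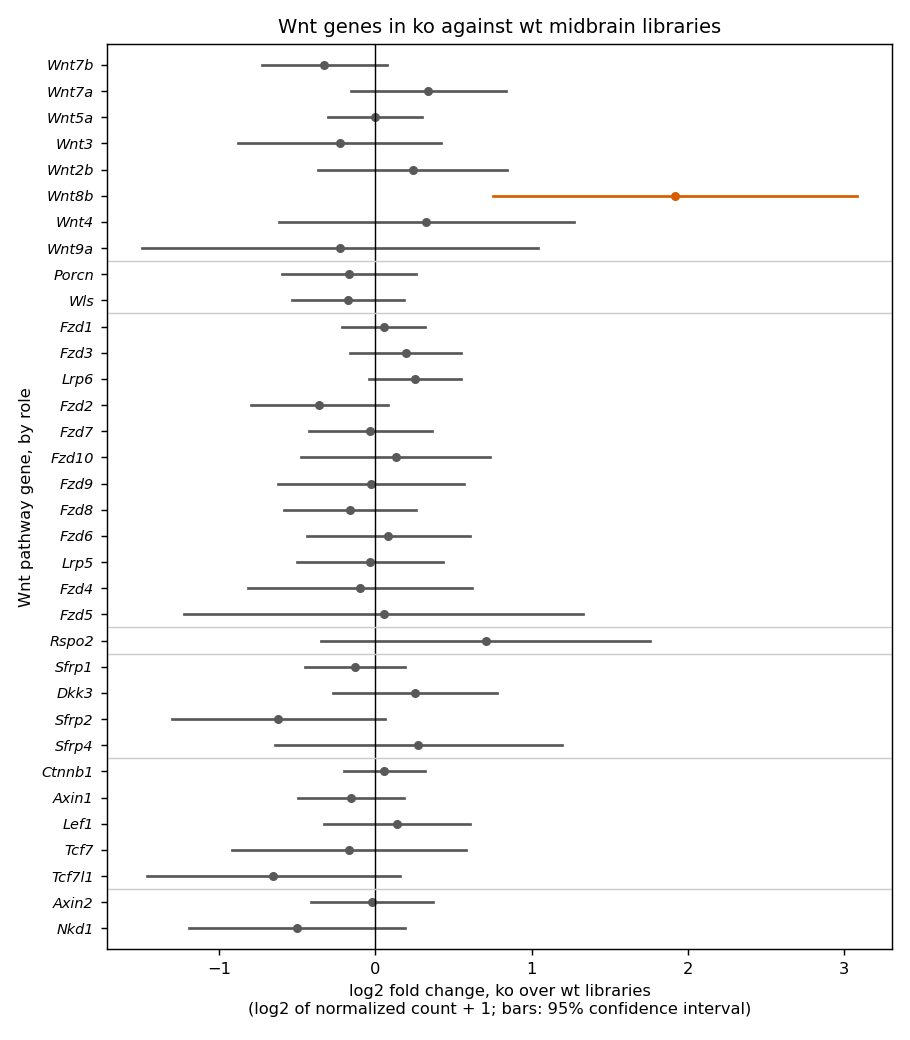
Log2 fold change of the 34 tested Wnt genes in ko over wt libraries (points) with 95% confidence intervals (bars), ordered by role and level; orange marks an unadjusted limma p under 0.05. The interval of *Wnt8b*, 0.75 to 3.08, is the only one that does not reach 0, and those of 25 genes lie within -1 and 1.

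How large a difference these libraries leave room for depends on the reads behind a gene. The 95% confidence interval of the log2 fold change between ko and wt lay wholly within -1 and 1 for 25 of the 34 members, beside 67.9% of all genes tested. It lay within -0.5 and 0.5 for 7 members, beside 33.3% of all genes. In the other 9 members, a change of 1 on the log2 scale in at least one direction lies inside the interval or at its edge. The plot of precision against reads shows where each gene stands.

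**Figure D4:**
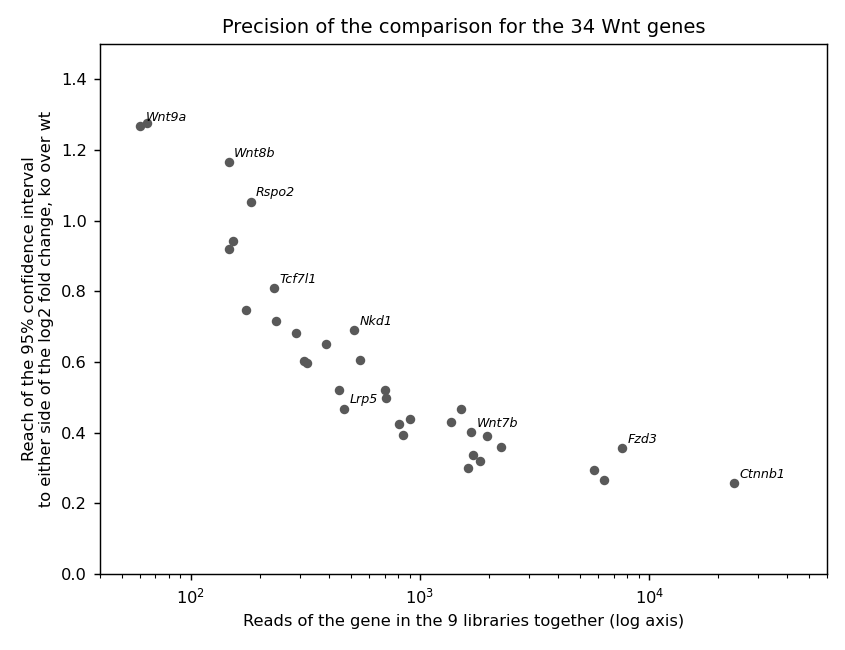
Reach of the 95% confidence interval to either side of the log2 fold change of ko over wt (log2 scale), plotted against the reads of the gene in all 9 libraries (log axis), with 1 point for each of the 34 tested Wnt genes. *Ctnnb1*, with 23571 reads, has the narrowest interval and *Fzd5* (64 reads) and *Wnt9a* (60 reads) the widest.

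The heterozygous libraries were compared with wt next, which shares the wt libraries with the main comparison. *Wnt8b* and *Lrp5* had an unadjusted limma p under 0.05, and both were higher in het. These are 2 of 34 members, beside 473 of all genes (2.78%), and with Benjamini-Hochberg adjustment in limma 0 members and 0 genes in all (0%) passed. edgeR counted 2 members and DESeq2 1 (*Wnt8b*) with an unadjusted p under 0.05, and both counted 0 members after adjustment. Over all genes, an adjusted p under 0.05 was given to 1 gene by DESeq2 and to 0 by edgeR. The log2 fold change of *Wnt8b* was 1.70 ± 0.55 (SE; 95% limits 0.54 and 2.87; p = 0.00698 by limma without adjustment and 0.1 by exact permutation), from a mean normalized count of 17.1 ± 7.35 (SD, n = 3) in het. The median log2 fold change of the members was -0.02, beside -0.01 for all genes. Values did not overlap for 4 of the 34 members (*Wnt8b*, *Lrp5*, *Wnt5a* and *Fzd6*), beside 6.91% of all genes. *Tcf7*, a Tcf factor, had a log2 fold change of -0.75, with an unadjusted limma p just over 0.05.

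Between ko and het, *Lrp5* and *Tcf7l1* had an unadjusted limma p under 0.05, and both were lower in ko. These are 2 of 34 members, beside 449 of all genes (2.64%), and 0 members and 0 genes in all (0%) passed the Benjamini-Hochberg adjustment in limma. edgeR and DESeq2 each counted 1 member, *Lrp5*, without adjustment and 0 with it. For *Wnt8b* the log2 fold change was 0.21 (95% limits -0.95 and 1.38; p = 0.704 by limma without adjustment and 0.7 by exact permutation), an interval that leaves room for a difference in either direction. The median log2 fold change of the members was -0.00066, beside 0.02 for all genes. Values did not overlap for 6 of the 34 members (*Lrp5*, *Wnt3*, *Wnt5a*, *Fzd8*, *Sfrp2* and *Tcf7*), beside 8.71% of all genes.

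Outside the 52 genes, 66 further genes of the pathway were listed, and 65 were found and 57 tested. They are cytoplasmic and nuclear parts of the pathway, other surface proteins and inhibitors, the planar polarity branch and further targets. The highest per exon length were *Apc2* (448 normalized counts per kb) and *Apc* (284), of the complex that breaks β-catenin down, and the transcription factor *Tcf7l2* (372). In the comparison of ko with wt, 0 were higher and 1 lower with an unadjusted limma p under 0.05, beside 2.60% of all genes, and the median log2 fold change was -0.03. The lower gene was *Sp5*, a target of canonical signalling. It had normalized counts of 62.1, 50.5 and 30.9 in wt, 16.3, 18.8 and 45.7 in het and 25.6, 24.7 and 18.9 in ko, so that ko lay under all wt libraries and het overlapped both. Its log2 fold change was -0.98 (unadjusted limma p = 0.0197, exact permutation p = 0.1) in ko and -0.90 (unadjusted limma p = 0.0298, exact permutation p = 0.2) in het. Between het and wt, 2 were higher, the targets *Myc* (log2 fold change 0.44) and *Id2* (0.42), and *Sp5* was the 1 lower, beside 2.78% of all genes. Between ko and het, 2 were lower, *Myc* (log2 fold change -0.35) and *Daam2* (-0.43), of the planar polarity branch, and 0 were higher, beside 2.64% of all genes. With Benjamini-Hochberg adjustment in limma 0 of the 57 passed in any of the 3 comparisons.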

How the data were processed

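Micro-dissected midbrain RNA of 9 libraries was sequenced (3 per genotype). Per the methods, the authors depleted ribosomal RNA, used Hisat2 for the alignment (GRCm38/mm10) and featureCounts for read counts per gene. The labels instead name a trizol isolation and an mRNA protocol, and the series title speaks of cortex. Tool versions, annotation and strand setting are not given in the sources used here. The authors deposited a signal per gene and library, the count divided by a DESeq2 size factor. Their 3 tables of DESeq2 comparisons hold the authors' own fold changes and p-values and were not used.

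Whole reads were recovered for 100% of 210686 values above 0 (within 1e-06 of a read). Of 51912 identifiers, 51719 matched GENCODE vM21 and 193 did not; 0 rows named no gene. The 16993 genes at or over a minimum mean normalized count of 5 were compared with limma 3.58.1 in R 4.3.3 (lmFit, eBayes with a trend) on log2(normalized count + 1), two-sided, with Benjamini-Hochberg adjustment over them. The comparison was tested on simulated data with known changes. Exact permutation tests were run with Python 3.11.15. Alternatives were pseudocounts of 0.5 and 5, no minimum or 20, only the 2 genotypes compared, quantile normalization, edgeR 4.0.16 with TMM and DESeq2 1.42.0 on the reads, log2 total reads or *Xist* as a covariate, and leaving out each library. Depth was 1692963 to 5942192 reads on genes.

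The members and lists were chosen with earlier results of these data known. By rule, every library is given for *Wnt8b* and *Wnt1*, for members with an unadjusted p under 0.05 or no overlap between wild-type and homozygous libraries, and for the 2 highest per kb in each role. Of other pathway genes, those with an unadjusted p under 0.05 are named. Further genes were named after their values were seen. Marker lists covered midbrain and rostral hindbrain, dopamine neurons, forebrain, diencephalon, caudal hindbrain, choroid plexus, meninges, endothelium and blood.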

Additional observations from a re-analysis of the deposited data

How the results depend on the processing

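No paired analysis was possible because the columns of values carry a genotype and no replicate number. In ko over wt, *Wnt8b* kept its direction under the labels and an unadjusted p under 0.05 in all 18 alternatives that test it, with a log2 fold change of 1.32 (pseudocount of 5) to 2.34 (without column 8). A minimum of 20 leaves it out. In het over wt the same held, at 1.15 to 2.13. The adjusted count of members was 0 in every alternative and comparison. The unadjusted count, 1 in ko over wt, was 2 with edgeR, with *Xist* as a covariate and with no minimum, 3 with total reads as a covariate, 0 with a minimum of 20, and 1 to 3 on leaving out a library. In het over wt it was 2, but 1 with DESeq2, *Xist* or a minimum of 20, 4 with no minimum and 1 to 4 on leaving out a library. In ko over het it was 2, but 1 with DESeq2, edgeR or *Xist* and 1 to 3 on leaving out a library. The share of all genes in each alternative is not set beside these counts. They therefore do not show whether the members moved apart from the other genes. The members' median log2 fold change in the last comparison was -0.12 with *Xist* and -0.10 to 0.011 on leaving out a library, and in het over wt -0.032 to 0.068 on leaving out a library.

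Signs reversed, near 0, in ko over wt for *Axin2* (0.0068 with edgeR, -0.17 to 0.067 on leaving out a library), *Fzd1* (-0.021 with *Xist*, -0.0067 to 0.12), *Lrp5* (0.032 with *Xist*, -0.13 to 0.051) and *Ctnnb1* (-0.028 with *Xist*, -0.0029 to 0.14). For *Wnt8b* in ko over het the sign reversed with *Xist* (-0.61) and without column 1 or 4 (range -0.13 to 0.50). *Lrp5* no longer had an unadjusted p under 0.05 in het over wt with DESeq2 (0.51) and *Xist* (0.49), nor in ko over het with *Xist* (-0.46), where the same held for *Tcf7l1* (-1.03). Without a change of sign, leaving out a library also moved the ko over wt log2 fold change by over 1.5 times for *Wnt7a* (0.20 to 0.51), *Dkk3* (0.11 to 0.48), *Fzd3* (0.072 to 0.33), *Porcn* (-0.29 to -0.065), *Wls* (-0.26 to -0.11), *Sfrp1* (-0.24 to -0.031) and *Axin1* (-0.26 to -0.060), each with an unadjusted p over 0.05 throughout. The cause was not tested. Depth limits the 18 members under the minimum, whose values rest on 0 to 48 reads.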

Other observations

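The genes beside *Wnt8b* were read as a further description. Within 250000 bases of it on chromosome 19, the annotation holds 11 other genes, of which 5 were over the minimum count (*Scd1*, *Scd2* and *Scd3*, which code for fatty acid desaturases, *Ndufb8*, of the respiratory chain, and *Hif1an*, an oxygen-dependent regulator of hypoxia signalling). In ko over wt libraries their log2 fold changes were all below 0, from -0.85 for *Scd3* to -0.03 for *Scd2*. The values of these 2 genotypes overlapped for all 5, while 9.52% of all genes did not overlap. In limma, 0 of the 5 had an unadjusted p under 0.05, beside 2.60% of all genes. The log2 fold change of *Wnt8b* in the same fit was 1.92.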
